A study of Mus musculus with 15 samples.

Results

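The genes described here encode the receptors through which serotonin, dopamine, noradrenaline, adrenaline and acetylcholine act on cells. They were taken by gene name from the array: every name beginning with the stem of a serotonin (Htr1 to Htr7), dopamine (Drd1 to Drd5), adrenergic (Adra1, Adra2, Adrb), muscarinic (Chrm1 to Chrm5) or nicotinic (Chrna, Chrnb, Chrnd, Chrne, Chrng) receptor gene, with Htr3a and the adrenergic receptor kinases left out by that rule. This gave 49 of the 27962 gene names on the array, measured by 72 probes, and 47 of the 49 had a probe well above background on at least 5 arrays and entered the tests. They were 12 of 13 serotonin, 6 dopamine, 9 adrenergic, 5 muscarinic and 15 of 16 nicotinic genes. One name, Drd1ip (now Caly), encodes calcyon, a membrane protein named for its interaction with the D1 receptor, and is not itself a receptor. Drd1a is now Drd1. Chrna3 and Htr3b stayed below the filter and were not tested.

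Hippocampal RNA of male mice of the C57BL/6J strain was measured on 15 single-colour Agilent arrays, in 3 groups of 5. The labels number the samples within each group and their source names carry numbers that differ, but no label says that each is a separate animal, and p-values measure the spread between these samples. E1 mice received a footshock in a box and were sampled 1 h after their first return to it without the shock, when freezing was high. ELF mice were sampled 1 h after trial 5 of such returns, made 24 h apart, when freezing had fallen. Control mice were placed in the box and never shocked according to the design text, while their sample names call them naive. No label used here gives their age. All values below are log2 processed intensities relative to the 75th percentile of the array, as mean ± SD with n = 5 unless stated, and each difference is given with its standard error (SE) from limma. Probe signals of different genes were not compared as expression levels, since probes differ in brightness.

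Monoamines reach the hippocampus from a few brainstem nuclei, and acetylcholine mainly from the medial septum and diagonal band, so the receptors on hippocampal cells decide how these signals are read. All but the nicotinic receptors and the serotonin 3 receptors are coupled to G proteins. In broad terms Htr2, Adra1, Chrm1, Chrm3 and Chrm5 act through Gq, which raises calcium. Htr4, Htr6, Htr7, Drd1a, Drd5 and the beta adrenergic receptors act through Gs, which raises cyclic AMP. Htr1, Htr5a, Drd2 to Drd4, Adra2, Chrm2 and Chrm4 act through Gi, which lowers it. Nicotinic receptors are pentameric ion channels built from alpha and beta subunits in the brain, with delta, epsilon and gamma subunits in muscle.

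What each spot on the array reads is a 60-base stretch of a transcript, and for G protein-coupled receptors some of these stretches fall in regions that family members share. The NPxxY motif, a landmark at the end of the seventh membrane helix of this receptor class, was searched as its codons on both strands of all 41174 probes. It was found on the probe strand of 158 probes (0.384%) and on the other strand of 108 (0.262%). Of the 46 probes for G protein-coupled receptors among these genes, 4 held it on the probe strand, and no probe of the 72 held it on the other. The 4 are shown 5′ to 3′, from the deposited files, with the motif's codons in capitals, because they read a stretch that receptors of this class have in common. None has a stop codon in the motif's frame.
Adra1d: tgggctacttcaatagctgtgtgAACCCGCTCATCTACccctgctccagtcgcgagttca
Adra2a: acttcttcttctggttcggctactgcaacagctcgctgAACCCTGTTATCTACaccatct
Drd4: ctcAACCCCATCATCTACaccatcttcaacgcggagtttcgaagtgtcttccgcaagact
Htr6: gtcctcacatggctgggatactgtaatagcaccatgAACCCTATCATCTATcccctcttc
They lie, on build mm7, at chr2:131287277-131287336 (minus strand), chr19:53960356-53960415 (plus), chr7:137712047-137712106 (plus) and chr4:138440209-138440268 (minus). Aligned at the motif, Adra2a and Drd4 were identical at 21 of 25 shared bases (84%), Adra1d and Htr6 at 34 of 47 (72.3%) and Adra1d and Drd4 at 25 of 40 (62.5%). The longest run that probes of any pair of different genes in the list shared was 15 bases, between Drd4 (bases 9 to 23 of its probe) and the Htr1b probe at chr9:81729654-81729713 (minus strand), whose shared bases are in capitals.
Htr1b: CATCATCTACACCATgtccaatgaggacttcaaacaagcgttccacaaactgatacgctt
Exon and UTR annotation on mm7 was not used here, so the other probes are given by position only.

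The 15 arrays lay on 4 slides, which are not balanced over the groups. Slide 1 held control 1 to 4, slide 2 held control 5 with E1 1 to 3, slide 3 held E1 4 and 5 with ELF 3 and 4, and slide 4 held ELF 1, 2 and 5. Between 83.5% and 97.2% of spots were well above background per array, with both the highest share and the next highest on slide 4 (97.2% on ELF 5 and 96.0% on ELF 2) and the lowest on ELF 4. Markers of hippocampal neurons had mean signals of 1.58 to 2.0 over all arrays. Choroid plexus markers (13 tested) averaged -2.31 on ELF 3 and 0.58 to 1.72 on the other arrays. Endothelial markers (10 tested) averaged 0.01 on control 1 and between -0.74 and -0.47 on the other control arrays. They averaged between -1.15 and -0.93 in E1 and between -1.45 and -1.14 in ELF. Of the 10, 2 were called lower in E1 than in control and 7 in ELF, where 0.0536% and 0.662% of all genes were. In whole tissue, fewer cells of a type and less RNA per cell cannot be told apart.

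In the comparison of E1 with control, which asks how hippocampal expression stood 1 h after trial 1, no receptor gene passed limma at an adjusted p of 0.05. The smallest adjusted p was 0.148, for the muscarinic receptor gene Chrm1. Over all 26117 genes 0.188% passed, 35 higher and 14 lower (260 and 40 with the array median as the shift). At an unadjusted p under 0.05, 9 of the 47 (19.1%) were higher, against 9.07% of all genes, and none was lower, against 4.04% of all genes. They were Chrm1, Htr2a, Htr5b, Adra1b, Chrna4, Htr4, Chrnb4, Drd1ip and Htr1b. The median difference of the 47 was 0.14, against 0.04 for all genes, and 36 of the 47 (76.6%) were above 0, against 58.8% of all genes. Control 5, the control array that shared a slide with E1, stood with the E1 arrays for several of these genes, as the plot of signals by array shows. A fit of these 2 groups with the replicate number as a block, chosen after seeing the data, called 4 of the 47 and is described below.

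In the comparison of ELF with control, at the trial when freezing had fallen, the nicotinic subunit gene Chrna4 was called higher and no other of the 47 passed (1 of 47, against 2.15% of all genes, 389 higher and 173 lower, or 780 and 803 from the authors' values). Of the 47, 9 (19.1%) were higher at an unadjusted p under 0.05, against 15.7% of all genes, and none was lower, against 7.3%. The share that was higher is thus near that of all genes. The median difference of the 47 was 0.25, against 0.10 for all genes, and 38 of the 47 (80.9%) were above 0, against 65% of all genes. With the array median as the shift the median of all genes moved by -0.10, and that of the 47 was 0.15.

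In the comparison of ELF with E1, which sets the late trial against the first, none of the 47 passed, against 0.00766% of all genes. At an unadjusted p under 0.05, 5 of the 47 (10.6%) were higher, against 5.64% of all genes, and none was lower, against 4.0%. Among those 5 were the adrenergic receptor genes Adra2a, Adra2b and Adrb3, and Htr1a. The 47 had a median difference of 0.05, equal to that of all genes at 2 decimals. The 3 comparisons share arrays, so their values are set side by side and not counted as separate evidence.

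**Figure D1:**
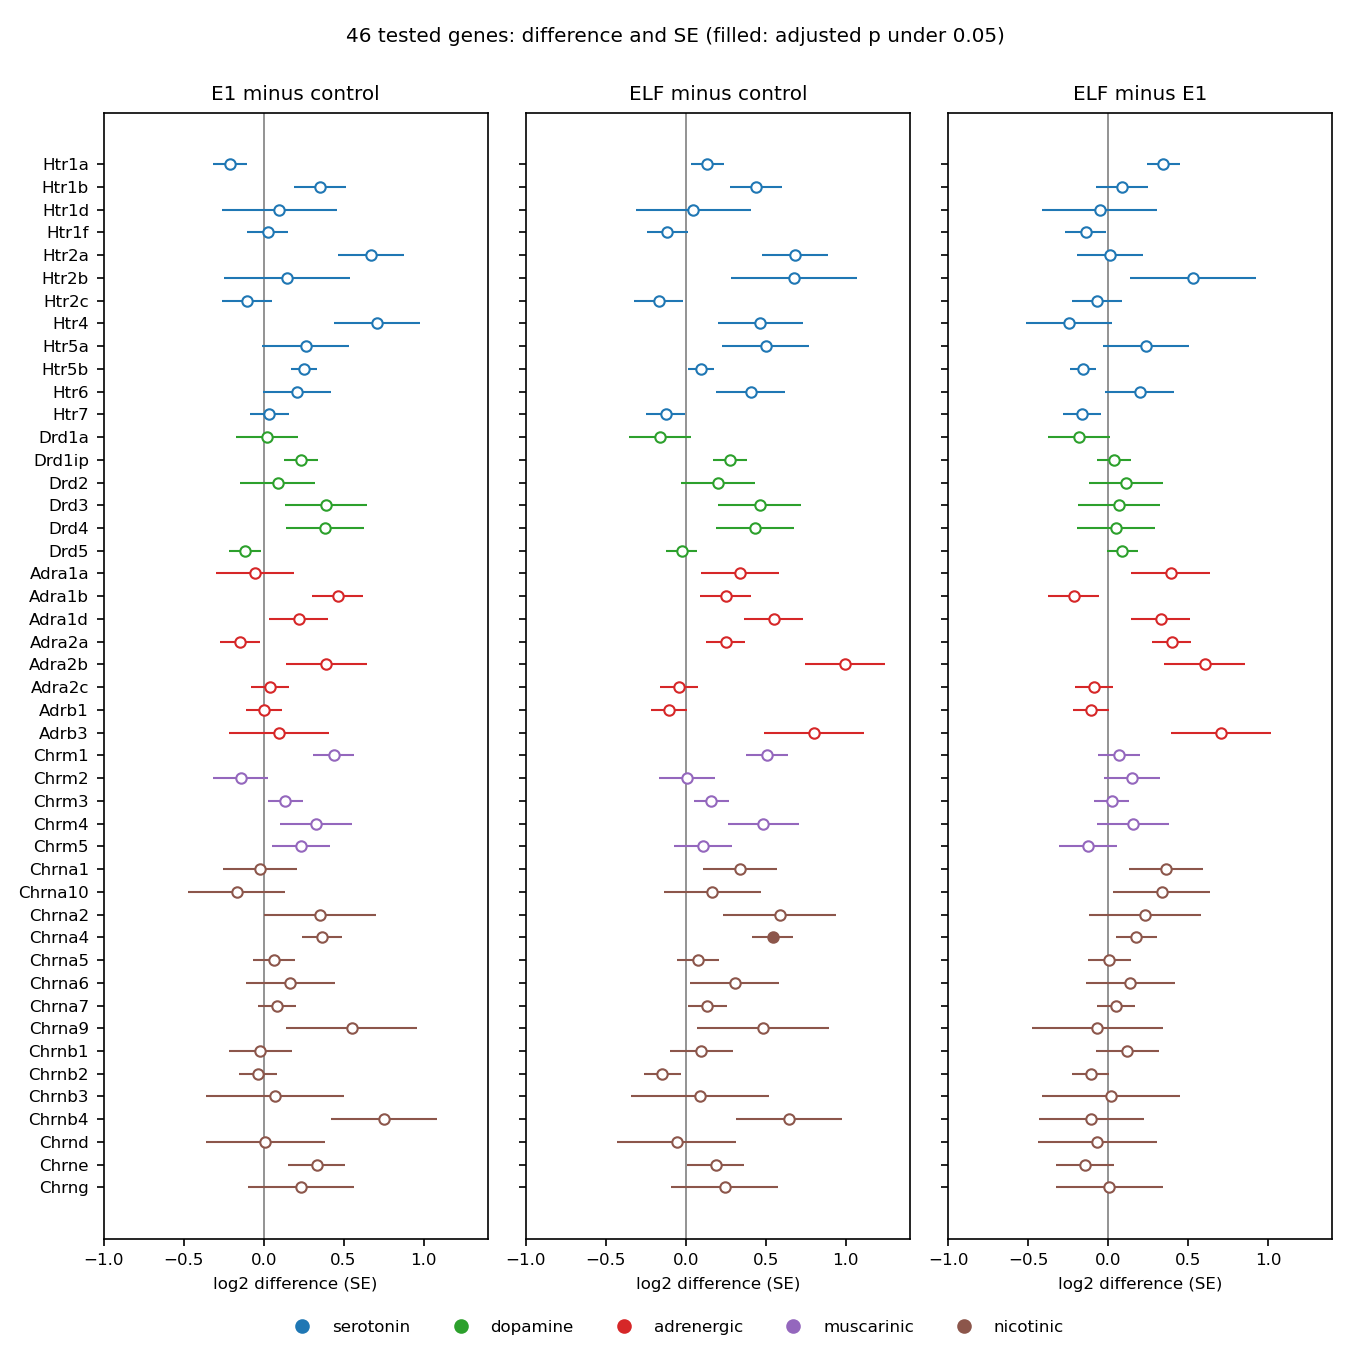
Log2 difference (x axis) of 46 of the 47 tested genes (rows, coloured by family) in the 3 comparisons, with bars of 1 SE. Chrna4 in ELF minus control, at 0.54, is the only filled point. Most points of ELF minus control lie right of 0 (38 when all 47 are counted), as do 65% of all genes.

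Among serotonin receptors, the highest differences in E1 were those of Htr4 and Htr2a. Htr2a, the Gq-coupled receptor that psychedelic drugs act on, was read by a probe whose 60 bases span chr14:69326875-69387312 and so cross an intron. It was -3.49, -3.41, -3.43, -3.34 and -2.57 on control 1 to 5, -2.55, -2.93, -2.65, -2.32 and -2.44 on E1 1 to 5, and -2.56, -2.26, -2.66, -3.16 and -2.19 on ELF 1 to 5. The 4 control arrays of slide 1 lay below all E1 and ELF arrays, and control 5 lay among them. It differed by 0.67 between E1 and control (SE 0.21, adjusted p = 0.166) and by 0.68 between ELF and control (SE 0.21, adjusted p = 0.0824). On slide 2 alone, E1 minus control was -0.14, and with slide as a block ELF minus control was -0.67. Without control 5 the E1 difference was 0.84 (adjusted p = 0.0177) and the ELF difference 0.85 (adjusted p = 0.0135). Both were thus called without that array, and neither in the reported fit with it.

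Htr4, a Gs-coupled receptor, had signals of -4.57 ± 0.49 in control, -3.86 ± 0.17 in E1 and -4.10 ± 0.58 in ELF. Control 1 to 4 read -4.70, -5.13, -4.78 and -4.40, below every E1 array (-4.12 to -3.70), and control 5 read -3.83. The difference of E1 was 0.71 (SE 0.27, adjusted p = 0.266) and was -0.07 within slide 2. A second Htr4 probe differed by 0.72 in E1 and 0.50 in ELF from control, close to the first. ELF minus E1 was -0.24 over all arrays and -0.87 within slide 3 (adjusted p = 0.0355 with slide as a block).

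Htr1a, the Gi-coupled receptor of hippocampal pyramidal cells and of serotonin neurons themselves, went the other way in E1. Its signal, at chr13:102584091-102584150, was -1.54, -1.30, -1.38, -1.39 and -1.24 in control, -1.71, -1.45, -1.78, -1.47 and -1.49 in E1 and -1.16, -1.54, -1.02, -1.20 and -1.24 in ELF. All E1 arrays lay below 4 of the 5 ELF arrays, and ELF 2 lay among them. ELF exceeded E1 by 0.35 (SE 0.10, adjusted p = 0.364), and the value within slide 3 was 0.37. Set against E1 with only its 2 arrays of slide 3, ELF differed by 0.47 (adjusted p = 0.0292). With only its 3 arrays of slide 4 it differed by 0.27 (adjusted p = 0.108). Of all genes 14.6% and 25.8% were called in these fits. E1 minus control was -0.21 (SE 0.10, adjusted p = 0.413) and -0.40 within slide 2.

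Htr1b, a Gi-coupled receptor of axon terminals, differed by 0.35 in E1 (SE 0.16, adjusted p = 0.375) and 0.44 in ELF (SE 0.16, adjusted p = 0.134) from control, by -0.14 within slide 2 and by -0.42 in ELF with slide as a block. Its 5 control signals ran from -5.54 to -4.88, with control 5 highest and inside the E1 range of -5.08 to -4.67. Htr5b, a serotonin receptor gene of rodents that is a pseudogene in humans, averaged -1.56 ± 0.10 in control, then -1.30 ± 0.14 in E1 and -1.46 ± 0.05 in ELF. It differed by 0.25 in E1 from control (SE 0.08, adjusted p = 0.184), by 0.12 within slide 2, and by -0.16 in ELF from E1 (SE 0.08, adjusted p = 0.544), with -0.29 within slide 3. The lowest E1 value of Htr5b, -1.45, lay just below the highest control value, -1.42.

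Htr2c, the Gq-coupled receptor that the choroid plexus expresses strongly, differed by -0.10 in E1 (SE 0.15) and -0.17 in ELF (SE 0.15) from control. Its ELF signals were 0.29, 0.08, -0.13, 0.79 and 0.29, lowest on ELF 3, the array on which choroid plexus markers were lowest, and their part in the result was not tested. Htr7, a Gs-coupled receptor, differed by 0.04 in E1 and -0.13 in ELF (SE 0.12 each). Of all genes 58.8% were above 0 in E1 minus control and 65% in ELF minus control. Of the 12 serotonin receptor genes these were 10 (83.3%) and 9 (75%), with medians of 0.18 and 0.27. Under the array median, quantile, normexp and authors' scalings these medians stayed above 0, and with slide as a block they were -0.13 and -0.55.

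Of the dopamine receptor genes, none passed in any comparison. Drd5, a D1-class receptor found in the hippocampus, averaged -0.34 ± 0.12 in control, then -0.45 ± 0.12 in E1 and -0.36 ± 0.18 in ELF. Its differences on this probe ran from -0.12 to 0.09, and a second probe differed by 0.13 in E1 and 0.35 in ELF from control (SE 0.27), so the probes differ in sign in both. Drd1a differed by 0.02 in E1 and -0.16 in ELF from control (SE 0.19). Its arrays ranged from -2.99 to -2.01 and the groups overlapped throughout. Drd3 and Drd4, of the D2 class, differed by 0.46 (SE 0.26) and 0.43 (SE 0.24) in ELF, with adjusted p of 0.294 and 0.301. With slide as a block these were -0.83 and -0.43. On ELF 3 and 4 both lay within or below the control range, and on ELF 1, 2 and 5 both were above every control array. Drd1ip, the calcyon gene, averaged 4.07 ± 0.13 in control, then 4.30 ± 0.12 in E1 and 4.34 ± 0.21 in ELF. It differed by 0.23 in E1 (SE 0.11, adjusted p = 0.366; 0.01 within slide 2) and 0.27 in ELF (SE 0.11, adjusted p = 0.149).

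**Figure D2:**
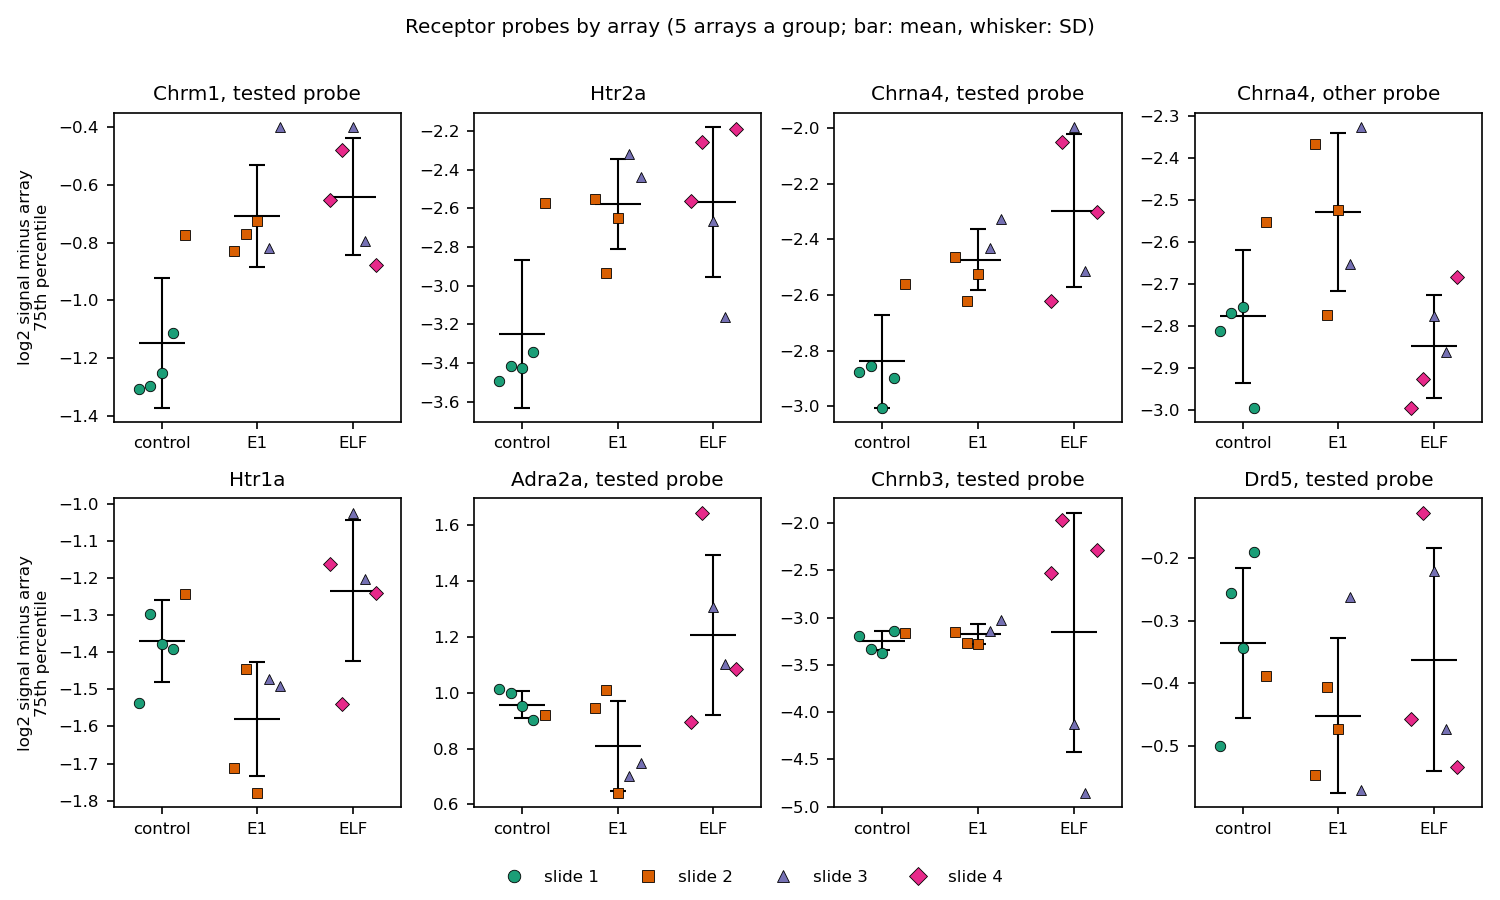
Log2 signal relative to the array's 75th percentile (y axis) of 8 probes on the 5 arrays of each group (x axis), with colour and symbol by slide, bars at the mean and whiskers of 1 SD. Control 5, on slide 2, stands with E1 for Chrm1 and Htr2a, and the ELF arrays of slides 3 and 4 lie apart for Chrnb3.

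Adrenergic receptors held the highest ELF differences. Adra2b, a Gi-coupled alpha-2 receptor, was -3.94, -4.47, -3.82, -3.85 and -3.12 in control, -3.73, -3.79, -3.41, -3.16 and -3.14 in E1 and -2.78, -2.34, -2.95, -3.56 and -2.58 in ELF. All ELF arrays but ELF 4 lay above every control array. ELF exceeded control by 1.0 (SE 0.25, adjusted p = 0.0537) and E1 by 0.60 (SE 0.25, adjusted p = 0.477). The first passed under all 4 other scalings (the authors' values gave 0.72, adjusted p = 0.0207) and with the filter on all 15 arrays (adjusted p = 0.0435). With slide as a block it was -0.63, and ELF minus E1 within slide 3 was -0.11.

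Adra2a, a Gi-coupled receptor on noradrenergic terminals and on their target cells, was read by 3 probes. The tested one, at chr19:53961681-53961740, was 1.01, 1.0, 0.95, 0.90 and 0.92 in control, 0.95, 1.01, 0.64, 0.70 and 0.75 in E1, and 0.89, 1.64, 1.31, 1.10 and 1.09 in ELF. Of the ELF arrays, 4 lay above all E1 arrays and ELF 1 lay among them. ELF exceeded E1 by 0.40 (SE 0.12, adjusted p = 0.371), and by 0.48 within slide 3. With only the ELF arrays of slide 3 the difference was 0.39 (adjusted p = 0.0391), and with only those of slide 4 it was 0.40 (adjusted p = 0.06). Those fits called 14.6% and 25.8% of all genes. The adjoining probe at chr19:53961741-53961800 differed by 0.31 (SE 0.16). The probe with the NPxxY motif shown above, upstream of both, differed by -0.05 (SE 0.13), so the probes of this gene disagree.

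Adrb3 differed by 0.80 in ELF from control (SE 0.31, adjusted p = 0.15) and by 0.71 from E1 (SE 0.31, adjusted p = 0.503). Its control arrays were -4.41, -5.07, -5.11, -4.33 and -3.68, and control 5 again was the highest, so that E1 minus control within slide 2 was -0.89. Its ELF minus control value was -0.95 with slide as a block. Adrb1, a Gs-coupled beta receptor of the forebrain, differed by 0.002 in E1 and -0.11 in ELF from control (SE 0.11 each), within the spread of its arrays. The ELF value was 0.48 with slide as a block (adjusted p = 0.136). With only the ELF arrays of slide 4 it was -0.28 (adjusted p = 0.0397), in a fit that called 41% of all genes. Another Adrb1 probe differed by 0.34 in ELF from control (SE 0.23).

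Of the Gq-coupled alpha-1 receptors, Adra1b averaged -0.25 ± 0.14 in control, then 0.21 ± 0.37 in E1 and -0.004 ± 0.22 in ELF. E1 minus control was 0.46 (SE 0.16, adjusted p = 0.22) and was 0.46 within slide 2 as well, where E1 1 read 0.81 and the other arrays between -0.22 and 0.04. Its other probe, at chr11:43792132-43792191, differed by 0.70 in E1 (SE 0.22) and by 0.89 in ELF (SE 0.22, adjusted p = 0.0492 over all 38458 probes). On that probe control 5 read -4.06, among E1 1 to 3 of the same slide (-3.79, -4.18 and -3.96). ELF 3 and 4 read -3.96 and -4.40, below ELF 1, 2 and 5 (-3.57, -3.16 and -3.27). Adra1d differed by 0.55 in ELF from control (SE 0.18, adjusted p = 0.107), with ELF 4 at -2.17 and the other ELF arrays between -1.28 and -0.91, above every control array (-2.06 to -1.72). Its difference from E1 was 0.33 over all arrays (adjusted p = 0.589) and -0.19 within slide 3. Adra1a differed by 0.39 between ELF and E1 (SE 0.24, adjusted p = 0.638). Of the 9 adrenergic genes 6 (66.7%) were above 0 in ELF minus E1, against 60.3% of all genes. Their median was 0.39, against 0.05 for all genes. It stayed between 0.29 and 0.34 under the other 4 scalings and was -0.06 with slide as a block.

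Chrm1, the Gq-coupled M1 receptor of pyramidal cells, was the muscarinic gene with the clearest step between slide 1 and the rest. Its tested probe spans chr19:8345143-8358063 and crosses an intron. It read -1.31, -1.30, -1.25, -1.11 and -0.77 in control, -0.83, -0.77, -0.73, -0.82 and -0.40 in E1 and -0.65, -0.48, -0.40, -0.79 and -0.88 in ELF. The 4 control arrays of slide 1 were below all others, and control 5 was at the level of E1. The differences from control were 0.44 in E1 (SE 0.13, adjusted p = 0.148) and 0.51 in ELF (SE 0.13, adjusted p = 0.0542). Within slide 2, E1 minus control was -0.002. Without control 5 both passed, at 0.53 (adjusted p = 0.0222) and 0.60 (adjusted p = 0.0103). The other Chrm1 probe, at chr19:8361014-8361073, differed by 0.16 and -0.01.

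Chrm4, a Gi-coupled receptor, differed by 0.48 in ELF from control (SE 0.22, adjusted p = 0.214) and 0.90 on its other probe (adjusted p = 0.0919 over all probes). On the tested probe ELF 1, 2 and 5 read -1.59, -0.88 and -1.19, above every control array, while ELF 3 and 4 read -1.97 and -2.34, inside the control range. The difference was -0.42 in the fit with slide as a block. Chrm2, the presynaptic M2 receptor of cholinergic terminals and interneurons, differed by -0.14 in E1 and 0.01 in ELF from control (SE 0.17). The ELF value hides a split. With only the ELF arrays of slide 3 it was -0.46 (adjusted p = 0.0314), and with only those of slide 4 it was 0.32 (adjusted p = 0.0429). These fits called 13.1% and 41% of all genes. Each keeps the ELF arrays of 1 slide, so its p-value does not measure the spread between slides. Over the 5 muscarinic genes the median differences were 0.23 in E1 and 0.16 in ELF from control.

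Chrna4, which with Chrnb2 forms the high-affinity nicotinic receptor of the brain, was called higher in ELF. Its tested probe, at chr2:181525636-181525695 on the minus strand, read -2.88, -2.85, -3.01, -2.90 and -2.56 in control, -2.46, -2.62, -2.52, -2.43 and -2.33 in E1 and -2.62, -2.05, -2.0, -2.51 and -2.30 in ELF. Control 5 lay inside the ranges of both other groups. ELF exceeded control by 0.54 (SE 0.13, adjusted p = 0.0452) and E1 exceeded it by 0.37 (SE 0.13, adjusted p = 0.22). The ELF call was made in 3 of 10 fits with 1 array left out (adjusted p 0.0126 to 0.141), those without control 5, ELF 1 or ELF 4. It was lost with the array median as the shift (adjusted p = 0.0911), quantile normalization (adjusted p = 0.0927) and normexp (adjusted p = 0.058). With slide as a block the difference was 0.15 (adjusted p = 0.785). With only the ELF arrays of slide 3 it was 0.58 (adjusted p = 0.03), in a fit that called 13.1% of all genes.

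A second Chrna4 probe gave another picture. It lies at chr2:181523517-181523576. It differed by -0.07 in ELF from control (SE 0.11, adjusted p = 0.706) and by 0.25 in E1 (SE 0.11). ELF minus E1 was -0.32 on this probe and 0.18 on the tested one. The mean of the probes differed by 0.24 in ELF from control (adjusted p = 0.192). The call therefore rests on 1 of the probes of this gene.

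No other nicotinic gene was called. Chrnb2, the partner subunit, averaged 0.57 ± 0.07 in control, then 0.53 ± 0.13 in E1 and 0.42 ± 0.27 in ELF. It differed by -0.04 and -0.15 from control (SE 0.12). Chrna7, which forms calcium-permeable receptors alone, differed by 0.09 in E1 and 0.13 in ELF (SE 0.12). Chrnb4, a partner of Chrna3 in the habenula and autonomic ganglia, differed by 0.75 in E1 from control (SE 0.33, adjusted p = 0.349; -0.15 within slide 2). It was well above background on 3, 2 and 4 arrays of control, E1 and ELF. Chrna9 was well above background on no control array, 2 E1 arrays and 3 ELF arrays. It entered the test only through the E1 and ELF arrays, and it was not called. Chrna9 differed by 0.55 in E1 from control (SE 0.41, adjusted p = 0.609) and by -0.03 within slide 2. Its difference in ELF from control was 0.48 (SE 0.41, adjusted p = 0.491). Control 5 read -6.29, inside the E1 range of -6.45 to -6.08, and ELF 4 read -8.30. The E1 and ELF means include arrays not well above background, so no least fold change can be given. Another Chrna9 probe was well above background on only 1 array and was not tested.

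Subunits of the muscle receptor were measured as well. Chrna1 differed by -0.02 in E1 and 0.34 in ELF from control (SE 0.23) and by 0.36 between ELF and E1 (adjusted p = 0.649). E1 5 read -3.67 and the other 14 arrays between -2.97 and -1.99. Chrne differed by 0.33 in E1 (SE 0.18, adjusted p = 0.458), with E1 5 at -1.36 and the other E1 arrays from -2.42 to -2.24. In ELF minus control the tested Chrne probe differed by 0.19 (SE 0.18), and the other one by 0.99 (SE 0.26, adjusted p = 0.0567 over all probes). Over the 15 nicotinic genes the median difference was 0.09 in E1 and 0.19 in ELF from control, and -0.73 in ELF from control with slide as a block. ELF minus E1 had a median of 0.02, which was -0.04 with the array median as the shift.

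Further tested genes were Adra2c, Chrm3, Chrm5, Chrna10, Chrna2, Chrna5, Chrna6, Chrnb1, Chrnd, Chrng, Drd2, Htr1d, Htr1f, Htr2b, Htr5a and Htr6. In E1 minus control they ran from -0.17 (Chrna10) to 0.35 (Chrna2), and in ELF minus control from -0.12 (Htr1f) to 0.68 (Htr2b). Htr2b, a Gq-coupled receptor, also had the highest ELF minus E1 value among them, at 0.53, and Htr1f the lowest, at -0.14. None passed the test in any comparison.

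The ELF arrays differed among themselves by slide. The mean of ELF 1, 2 and 5 (slide 4) exceeded that of ELF 3 and 4 (slide 3) for 35 of the 47 genes, by a median of 0.60, against 71.3% of all genes and a median of 0.26. Chrnb3, a subunit found with Chrna6 in dopamine and retinal neurons, read -2.53, -1.97 and -2.28 on slide 4 and -4.12 and -4.86 on slide 3, a gap of 2.23. Control and E1 together ran from -3.37 to -3.03, between the ELF slides, and the group difference of ELF from control was 0.09. Another Chrnb3 probe was well above background on no array and was not tested. Htr2b had a gap of 1.65, Htr1d of 1.60 and Chrna6 of 1.26. Chrna9, Chrnb4 and Chrnd were not well above background on all ELF arrays. Their gaps are not listed, but they are counted in the values over the 47 and drawn in the plot. Adrb1 (-0.43) and Chrnb2 (-0.35) had the lowest gaps. With only the ELF arrays of slide 4, 26 of the 47 (55.3%) passed against control, 25 of them higher, against 41% of all genes. With only those of slide 3, 4 passed, Chrna4 higher and Chrm2, Chrnb1 and Chrnb3 lower, against 13.1% of all genes.

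**Figure D3:**
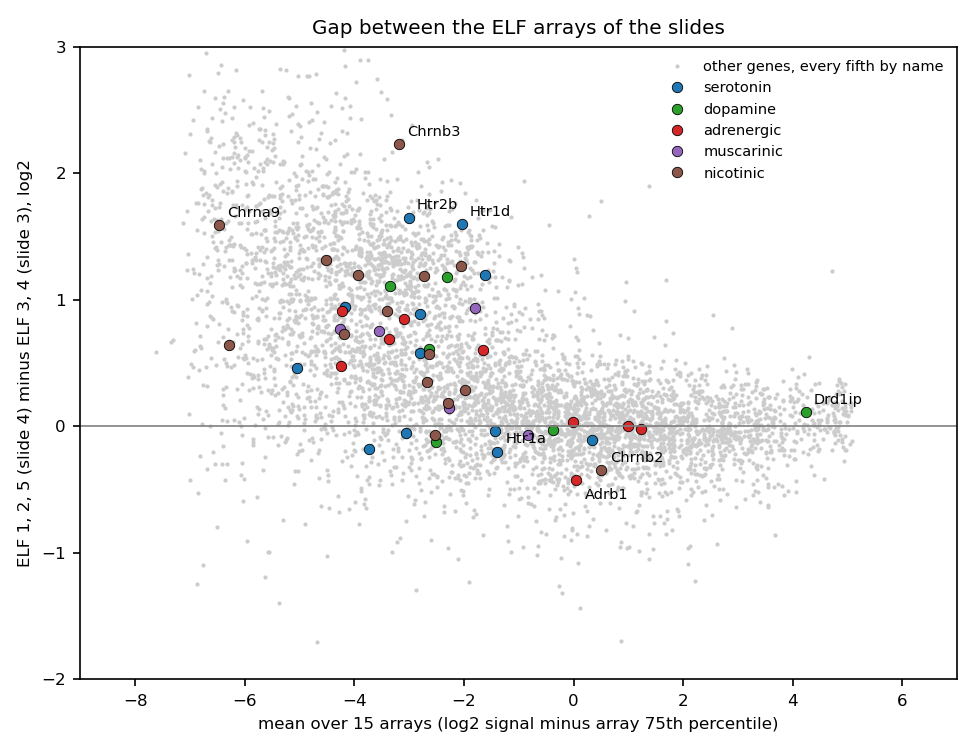
Gap between the ELF arrays of slide 4 and slide 3 (y axis, log2) against the mean signal over 15 arrays (x axis, log2 relative to the array's 75th percentile), for the 47 genes by family and for a regular sample of the other genes in grey. Genes with dim probes, on the left, have the wide gaps, up to 2.23 for Chrnb3, and the genes right of 0 on the x axis lie between -0.43 and 0.11.

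The gap moved with the brightness of the probe. Over the 47 genes Pearson's r between the gap and the mean signal was -0.51 (Spearman's rho -0.51), and over all 26117 genes it was -0.60 (rho -0.62), values that describe genes measured on the same arrays. The 23 genes in the dimmer part of the 47 had a median gap of 0.85 and the 24 in the brighter part 0.07. For ELF minus control these medians were 0.38 and 0.19, and for E1 minus control 0.15 and 0.12. The share of G and C in the probe also moved with the group differences, with r of 0.53 for E1 minus control and 0.56 for ELF minus control over the 47, against 0.41 and 0.29 over all genes. The part of brightness and base composition in the receptor differences was not tested.

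Within slides, the differences of most receptor genes, as of most genes, were below 0. On slide 2, E1 minus control (3 arrays against 1) was above 0 for 12 of the 47, with a median of -0.09, against 40.7% of all genes and a median of -0.04. On slide 3, ELF minus E1 (2 against 2) was above 0 for 10 of the 47, with a median of -0.23, against 32.5% of all genes and a median of -0.18. Control 5 exceeded the mean of the other control arrays for 39 of the 47 genes, by a median of 0.23, against 62.2% of all genes and a median of 0.08. With slide as a block 9 of the 47 (19.1%) were called lower in ELF than in E1, against 16.9% of all genes called lower. They were Chrm5, Chrnb1, Chrnb3, Chrng, Drd3, Htr1d, Htr4, Htr5a and Htr6, with differences from -1.41 to -0.51. Htr1a and Adra2a are 2 of the 10 that stayed above 0 there. Slides and groups overlap only on slides 2 and 3, so a slide's share in the other differences cannot be told apart.

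**Figure D4:**
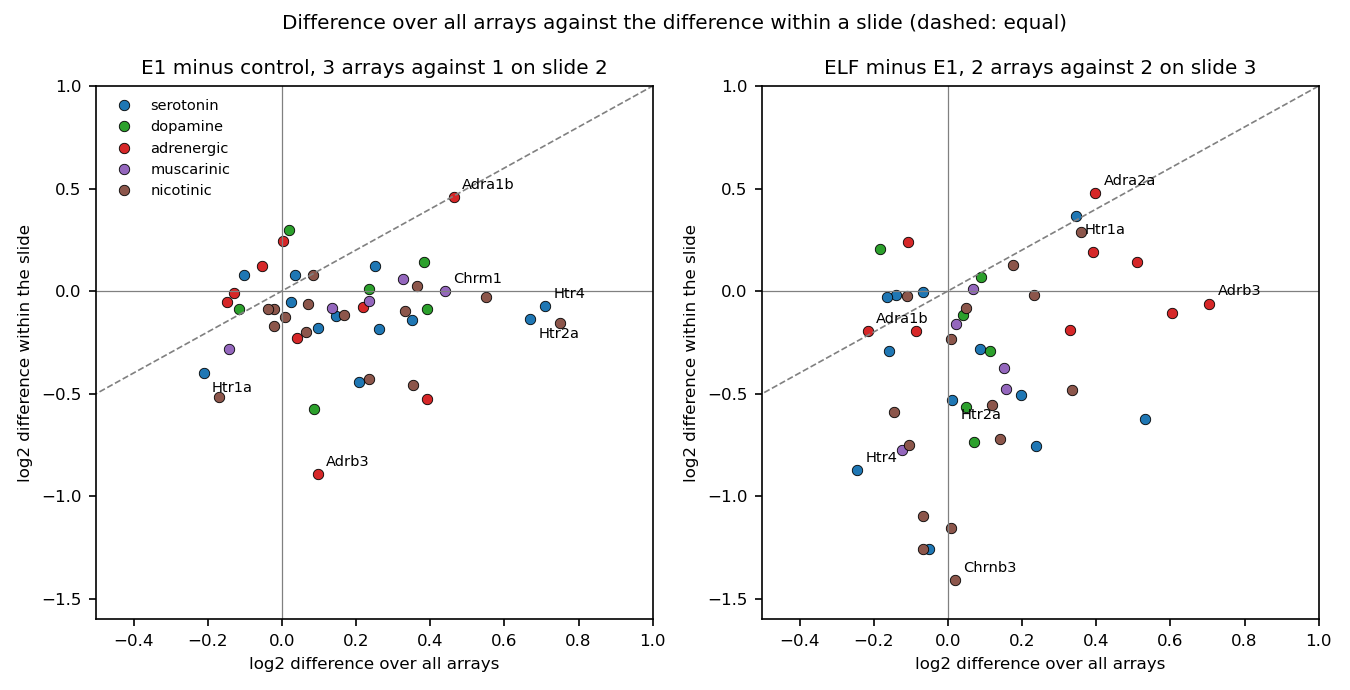
Log2 difference within a slide (y axis) against the difference over all arrays (x axis) for the 47 genes, left for E1 minus control on slide 2 and right for ELF minus E1 on slide 3, with a dashed line where both are equal. Adra1b (left, 0.46 on both axes) and Htr1a and Adra2a (right) lie near the line, and Chrm1, Htr2a and Htr4 (left) drop to near 0.

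For 18 of the 47 genes more than 1 probe passed the filter. All probes of a gene had the same sign for 11 of the 18 in E1 minus control, 12 in ELF minus control and 11 in ELF minus E1. The median spread between the probes of a gene was 0.17, 0.36 and 0.33 in that order, of the size of the differences described. The probes of Htr4 lay within 0.031 of each other in both comparisons with control. Those of Adra1b had the same sign there but lay 0.64 apart in ELF minus control. Probes differed in sign for Adrb1, Chrm1, Chrm3, Chrna4, Drd5 and Htr2c in ELF minus control. The spread was largest for Htr2c in both comparisons with control (0.66 in E1 and 0.82 in ELF).

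The replicate number was also used as a block, though no label pairs the samples by it. Same-numbered control and E1 arrays lay on different slides, so this block does not remove slide differences. Over all 15 arrays it called none of the 47 in E1 minus control, against 0.0345% of all genes. With only the 10 control and E1 arrays, 4 of the 47 were called higher in E1 (8.51%), against 9.4% of all genes called higher. They were Chrm1 (adjusted p = 0.0169), Chrna4 (adjusted p = 0.0257), Htr2a (adjusted p = 0.0305) and Htr4 (adjusted p = 0.0308). Within slide 2 their E1 minus control values were -0.002, 0.02, -0.14 and -0.07, in that order. In the fit of the 10 arrays 13 genes of the 4 lists below (21, 13, 11 and 46 tested) passed, all higher, against the same 9.4% of all genes.

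The genes that make, move and break down these transmitters, and those that act behind the receptors, were taken from 4 lists. Of 21 tested genes of monoamine synthesis, transport and breakdown, 1 was called in ELF against control, where 2.15% of all genes were called. Tph1, which encodes a tryptophan hydroxylase, the enzyme that starts serotonin synthesis, rose by 0.82 (SE 0.17, adjusted p = 0.0372). It differed by 0.71 from E1 (SE 0.17, adjusted p = 0.264) and by 0.35 from control with slide as a block. Tph2, the enzyme of brain serotonin neurons, differed by 0.43 from control (SE 0.11, adjusted p = 0.0536) and 0.57 from E1 (SE 0.11, adjusted p = 0.178). With slide as a block these values were 0.37 and 0.43. In E1 the smallest p-values of the list belonged to Spr (0.25, adjusted p = 0.178) and Maob (-0.25, adjusted p = 0.356). With slide as a block these differences were 0.08 and -0.003.

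Of 13 tested genes of acetylcholine synthesis, transport, breakdown and nicotinic receptor partners, none passed in any comparison without a block. Ache, which encodes the enzyme that breaks acetylcholine down, differed by 0.43 in E1 (SE 0.12, adjusted p = 0.115; 0.04 within slide 2) and 0.33 in ELF (SE 0.12, adjusted p = 0.119). Rapsn, which anchors muscle nicotinic receptors, differed by 0.83 and 0.91 (SE 0.28) and by -0.31 within slide 2. With slide as a block ELF minus control was -0.26 for Ache and -1.06 for Rapsn. In ELF minus E1 the smallest p-values belonged to Slc5a7, the choline transporter gene (0.27, adjusted p = 0.602), and Lypd1 (0.17, adjusted p = 0.659).

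None of the 11 tested genes of histamine metabolism and of histamine, trace amine and adenosine receptors passed. Hrh3, the presynaptic histamine receptor gene, differed by 0.42 in E1 from control (SE 0.12, adjusted p = 0.122; 0.20 within slide 2) and by -0.27 in ELF from E1. Hdc, the histamine-making enzyme, differed by -0.35 in E1 and -0.59 in ELF from control (SE 0.19; adjusted p = 0.458 and 0.0967). None of 46 tested genes for G proteins, effectors and desensitisation passed, with medians of 0.06 in E1 and 0.004 in ELF from control. Plcb4, a phospholipase C that acts behind Gq and is abundant in the thalamus, differed by -1.09 in ELF from control (SE 0.27, adjusted p = 0.0527) and by -0.29 with slide as a block. Plcb4 read -4.67 on ELF 2 and -3.45 to -3.0 on the other ELF arrays. Rgs4, whose product shortens Gi and Gq signals, differed by -0.51 between ELF and E1 (SE 0.17, adjusted p = 0.396). It read 0.67 on ELF 2 and 1.45 to 1.86 on the other ELF arrays, and its difference was -0.13 with slide as a block. Rgs14, a gene of the hippocampal area CA2, differed by 0.41 in ELF from control (SE 0.12, adjusted p = 0.0702) and by 0.17 with slide as a block. Markers of the thalamus and habenula (13 tested) averaged -1.603 to -1.362 in control, -1.39 to -0.80 in E1 and -1.43 to -1.08 in ELF, and their part in these differences was not tested.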

How the data were processed

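Scanner output of 15 single-colour Agilent arrays (build mm7) was used. Spot intensities were extracted and background-corrected by the authors with Agilent Feature Extraction 9.5.3.1, per the file headers, which also give the flags for spots well above background. The authors' deposited table of log2 values correlated at 0.996 or more with the log2 mean intensity of each array and served as an alternative. Its normalization is not stated in what was used here, beyond limma being named in the submitters' processing notes.

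Log2 processed intensity minus each array's 75th percentile was averaged over spots of a probe, without control and outlier spots. Probes well above background on at least 5 arrays were kept (38458 of 41174), and the probe with the highest mean stood for its gene name (26117 genes). All 15 arrays entered 1 limma fit (version 3.58.1, R 4.3.3), with Benjamini-Hochberg adjustment over all genes and a threshold of 0.05. The script was tested on simulated data. The number of arrays limits the precision.

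Same-numbered control and E1 arrays deviated together from their group means (r 0.14 to 0.30 over genes, own number the best match for 3 of 5), so the replicate block is given for that comparison. No label says that they are pairs. For ELF the correlations included values below 0 and the numbers were not taken as pairs. Alternatives were other scalings, filters, probe rules, slide and replicate blocks and leaving out each array.

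Receptor genes and lists were chosen with earlier results of these data known. Genes named with full statistics were those called, the 10 with the smallest p-value per comparison and 14 known from work on hippocampal memory; of the pathway lists, those called or otherwise the 2 with the smallest p-value. Other genes named were chosen after their values were seen. Gene names are those of the array, and 63 of the 72 probes matched a RefSeq symbol (GRCm38.p6) by accession. Probe sequences and mm7 positions are from the array files. The values of 1 tested receptor gene are not reported here, though it is counted among the 47.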

Additional observations from a re-analysis of the deposited data

Results flagged for a closer look

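In each group of 5 arrays, the highest or lowest value was set against the gap that Dixon's test allows at 95%. Of 141 groups examined (47 genes in 3 groups), 10 held a value far from the other 4, where chance gives about 1 in 20. Of these, 4 were on E1 5. Adra1a was -4.15 there (others -3.17 to -2.94), Chrna1 was -3.67 (others -2.71 to -2.39), Chrm1 was -0.40 (others -0.83 to -0.73) and Chrne was -1.36 (others -2.42 to -2.24). On ELF 4, Adra1d was -2.17 (others -1.28 to -0.91) and Chrnd was -6.27 (others -4.42 to -3.83). On control 5, the control array of slide 2, Htr2a was -2.57 (others -3.49 to -3.34) and Htr6 was -2.46 (others -3.20 to -3.02). Chrna7 was -1.46 on ELF 2 (others -2.11 to -1.93), and Drd2 was -2.83 on E1 3 (others -2.65 to -2.58).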

How the results depend on the processing

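The replicate block limited to the compared groups, the fits with the ELF arrays of 1 slide and the other probes of a gene were chosen after seeing the data. The p-values of the fits with the ELF arrays of 1 slide do not measure the spread of ELF between slides. For E1 against control, no receptor gene was called under the planned settings, except with 1 array left out (0 to 2, the 2 without control 5, or 4.26%, against 3.53% of all genes called higher). With the replicate block on the compared groups 4 receptor genes and 13 pathway genes were called, all higher, against 9.4% of all genes called higher. Pathway genes called ran from 0 to 4 with 1 array left out. The 4, all higher, were called without control 5, against 3.53% of all genes called higher.

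For ELF against control, where 1 receptor gene was called, the count was 4 with quantile normalization (8.51%, against 4.05% of all genes), 2 with normexp (4.26%, against 1.85%), 2 from the authors' values (4.26%, against 2.99%) and 3 with the filter on all 15 arrays (against 2.29%), all called higher. It was 0 with the mean of probes, with slide as a fixed or random block, with the replicate block over 15 arrays or on the compared groups, and with only those groups in the fit. It was 4 with only the ELF arrays of slide 3 and 26 with only those of slide 4, and 0 to 15 with 1 array left out, the 15 without ELF 4 (31.9%, against 17% of all genes called higher) and 5 without control 5 (10.6%, against 6.19%). Pathway genes called, 1 in the reported fit, were 3 with the array median, 3 with quantile normalization, 2 with normexp, 4 from the authors' values and 3 with the filter on all 15 arrays. Of all genes 4.61%, 6.51%, 2.44%, 6.06% and 3.38% were called there, in that order. No pathway gene was called with either slide block, with only the compared groups or with the replicate block on them. With the ELF arrays of slide 3, 11 were called (against 13.1% of all genes), and with those of slide 4, 31 (against 41%). With 1 array left out 0 to 14 were called, the 14 without ELF 4 (against 19.8%). The median difference of the receptor genes, 0.25, became -0.43 with slide as a fixed block, -0.037 with the ELF arrays of slide 3 and 0.51 with those of slide 4 (all genes -0.22, -0.09 and 0.20). It was 0.16 without ELF 5 and 0.43 without ELF 4. With the slide block 35 of the 47 genes (74.5%) turned sign, against 57.5% of all genes. Chrm2, at 0.01 over all arrays, was -0.46 with the ELF arrays of slide 3, and Chrna4 was -0.072 on its other probe.

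For ELF against E1, 9 receptor genes and 17 pathway genes were called with slide as a fixed block, 8 and 14 with the ELF arrays of slide 3, and 18 and 21 with those of slide 4. Of all genes 19.6%, 14.6% and 25.8% were called in these fits, in that order. The 8 are 17% of the receptor genes, against 14.6% of all genes, and the 18, all higher, are 38.3%, against 24.1% called higher. The median, 0.05, became -0.23 with the slide block and 0.36 with the ELF arrays of slide 4, and ran from -0.019 without ELF 2 to 0.25 without ELF 4. For E1 against control it ran from 0.064 without control 2 to 0.22 without control 5. The causes were not tested. Dim probes limit Chrna9 and Chrnb4, which were well above background on 5 and 9 of 15 arrays.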
